A study of Mus musculus with 6 samples.

Results

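Myosin is the motor of the heart's thick filament, and the 9 genes described here encode its cardiac heavy and light chains and the myosin-binding proteins C that sit on the filament. Their probe sets were found by gene symbol in the platform annotation of the deposited table. The 9 genes (of 18193 named) had 13 probe sets annotated to a single gene, and 2 more were annotated to both Myh7 and Myh6, which makes 15 of 45037 probe sets. Myh6, Myl3 and Myl4 had several probe sets and the other 6 genes had 1 each.

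RNA of hearts from mice 3 months old was hybridised to one-colour, biotin-labelled oligonucleotide arrays (Affymetrix), 3 for Des-/- and 3 for TNFαDes-/-. Both groups lack desmin, an intermediate filament protein that ties the sarcomeres of muscle together, and the TNFαDes-/- mice in addition overexpress the inflammatory cytokine TNF-α in the heart, so no array shows a heart with desmin. The labels give the strain as 129SV for Des-/- and as mixed 129SV/C57 for TNFαDes-/-, and the effects of transgene and strain cannot be told apart. No promoter is named for the transgene. The labels state that RNA of 3 hearts of a genotype was pooled before labelling, while the design text gives 3 mice per genotype. The arrays of a group may therefore be repeats of 1 pool, and the p-values measure only the spread between arrays, which may be technical.

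A heart muscle cell makes large amounts of either of 2 heavy chains, which hold the motor domain. Myh6 encodes the fast α heavy chain, which dominates in the adult mouse, and Myh7 the slow β heavy chain, which dominates before birth and returns in hypertrophied, failing or thyroid-hormone-poor hearts. Each heavy chain carries an essential light chain (Myl3 in the ventricle, Myl4 in the atrium) and a regulatory light chain (Myl2 in the ventricle, Myl7 in the atrium). Cardiac myosin-binding protein C, the product of Mybpc3, holds the heads near the filament's backbone.

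Myh6 and Myh7 lie head to tail on chromosome 14, with Myh6 at chr14:54941921-54968017 and Myh7 at chr14:54970684-54994626 (RefSeq, GRCm38.p6), both on the minus strand. The long noncoding RNA Mhrt overlaps Myh7 at chr14:54968787-54974349. Myh7b lies at chr2:155611243-155634307. Each of these 3 heavy chain genes holds a microRNA gene within its bounds, Mir208a in Myh6, Mir208b in Myh7 and Mir499 in Myh7b. The mature microRNAs were not measured here. Their RefSeq sequences are shown because a heavy chain and its microRNA share a locus. Capitals mark the seed, bases 2 to 8 from the 5′ end.

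mmu-miR-208a-3p: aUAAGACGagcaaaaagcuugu
mmu-miR-208b-3p: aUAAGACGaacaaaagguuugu
mmu-miR-499-5p: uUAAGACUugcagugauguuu

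The microRNAs of Myh6 and Myh7, at chr14:54949072-54949093 and chr14:54975710-54975731 on the minus strand, share the seed UAAGACG. That of Myh7b, at chr2:155622893-155622913 on the plus strand, has the seed UAAGACU.

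The 250 bases before a RefSeq start of Myh6 (chr14:54966608-54966857) and of Myh7 (chr14:54994627-54994876, the outer of 2 starts) are shown because these genes have the largest changes among the members, in opposite directions. The Myh6 window lies inside the gene bounds given above, before the only start that the promoter table lists and not before the outer end of the gene. Both are written 5′ to 3′ on the genes' own minus strand. Capitals mark matches, on either strand, to 4 short motifs: AGGTCA, the half-site of many nuclear receptors, its variants AGGTGA and AGGACA, and CATTCC, the motif of TEAD factors. No motif overlapped another within these windows.

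Myh6 promoter: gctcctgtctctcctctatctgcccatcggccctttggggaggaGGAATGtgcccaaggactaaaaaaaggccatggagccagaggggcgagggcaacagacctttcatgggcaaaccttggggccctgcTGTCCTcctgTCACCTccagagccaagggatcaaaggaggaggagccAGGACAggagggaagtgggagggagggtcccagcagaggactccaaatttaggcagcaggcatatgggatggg
Myh7 promoter: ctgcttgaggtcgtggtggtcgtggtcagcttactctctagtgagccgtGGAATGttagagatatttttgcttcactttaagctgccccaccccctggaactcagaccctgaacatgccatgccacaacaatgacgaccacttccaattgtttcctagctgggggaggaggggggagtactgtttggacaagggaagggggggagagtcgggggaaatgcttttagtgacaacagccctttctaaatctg

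The Myh6 window held 4 matches: CATTCC 206 to 201 bases before the start, AGGACA at 120 to 115 and 73 to 68, and AGGTGA at 110 to 105. The Myh7 window held 1 match, CATTCC at 201 to 196 bases before its start. Among 32851 promoter windows of the same length, 12.6% held CATTCC, 14.0% AGGTCA, 14.5% AGGTGA and 17.0% AGGACA. A match is a description of the letters and not a binding site.

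The deposited values are on a log2 scale, and each change below is the TNFαDes-/- mean minus the Des-/- mean. It was tested with limma over all 45037 probe sets, with Benjamini-Hochberg adjustment and a threshold of 0.05. The arrays did not share 1 scale at the bright end. The highest value was 14.95 on Des-/- replicate 1, 14.20 and 14.23 on Des-/- replicates 2 and 3, and 15.01 to 15.04 on the TNFαDes-/- arrays. The mean of these tops was 0.57 higher in TNFαDes-/-. The 450 brightest probe sets had a median change of 0.37, against 0.019 for all probe sets, and quantile normalization of the 6 arrays brought that 0.37 to 0.0012. Since most of the chains are very bright, each member's change is given on both scales, as deposited and after quantile normalization, and for the other genes the second value is in the same paragraph.

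Among the 13 single-gene probe sets, 1 rose (Myh7) and 1 fell (Myh6 1417729_at), and 11 did not pass the test. Over all probe sets 14.9% passed, 9.94% higher and 4.93% lower. The values of the 2 groups did not overlap for 5 of the 13, 2 higher and 3 lower, where 33.6% of all probe sets had groups apart. These 5 were Myh7, Mybpc3, Myh6 1417729_at, Myh7b and Myl7. After quantile normalization 5 of 13 passed, Myh7 higher and 4 (Myh6 1417729_at, Myh7b, Myl7 and Mybpc2) lower, against 16.3% of all probe sets, 8.51% higher and 7.74% lower. Of all probe sets past the test, 66.9% were higher in TNFαDes-/- as deposited and 52.4% after quantile normalization. Without Des-/- replicate 1, whose bright end differed from that of its group, 10 of 13 passed, 7 higher and 3 lower. Of all 45037 probe sets 23.1% passed in that fit, 7310 higher and 3092 lower. It keeps Des-/- replicates 2 and 3, the arrays with the lowest tops. Quantile normalization of the same 5 arrays gave 1 member probe set higher and 5 lower, with 4415 and 4302 of all probe sets. With arrays weighted by their fit, 9 of 13 passed, 6 higher and 3 lower, against 33.4% of all (9563 higher and 5472 lower).

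Myh7 had the largest change of any member. Its only single-gene probe set, 1448553_at, read 10.95, 10.79 and 10.72 on the Des-/- arrays and 14.47, 14.49 and 14.50 on the TNFαDes-/- arrays. All 3 TNFαDes-/- arrays were far above all Des-/- arrays, and the spread within each group was small (10.82 ± 0.12 and 14.49 ± 0.01, SD, n = 3). The change was 3.67 ± 0.10 (SE), 12.7-fold higher with a 95% interval of 10.9 to 14.9, and limma gave an adjusted p of 1.65e-06. It was the 6th largest rise among all probe sets. After quantile normalization the change was 3.32, and leaving out any 1 array kept the call. In brightness the probe set ranked 1112, 889 and 907 on the Des-/- arrays and 16, 13 and 15 on the TNFαDes-/- arrays. The TNFαDes-/- values lay 0.52 to 0.56 below the top of their arrays, where a signal may be compressed, and whether that lowered the measured rise was not tested.

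The genes whose profile over the 6 arrays was most like that of Myh7, by Euclidean distance between centred log2 values, were Rpgrip1 (0.417), Plaat1 (0.532), Krt8 (0.565), Tnni1 (0.659) and Maoa (0.777). Tnni1 encodes the slow skeletal troponin I that the embryonic heart also uses, Krt8 a keratin of simple epithelia and Maoa a monoamine oxidase. Tnni1 went from a mean of 5.47 to 8.67. The likeness was sought over profiles that share the same 6 arrays and is a description.

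Myh6 gave different readings on its 2 own probe sets. On 1417729_at the Des-/- arrays read 12.27, 11.08 and 11.13 and the TNFαDes-/- arrays 8.67, 8.77 and 8.92. Des-/- replicate 1 was about 1 log2 unit above the other Des-/- arrays, and even the lowest Des-/- array was more than 2 units above the highest TNFαDes-/- array. The change was -2.71 ± 0.29 (SE; 95% interval -3.36 to -2.05), 6.53-fold lower, with a limma adjusted p of 0.000944. It was the 8th largest fall among all probe sets, and it was -2.97 after quantile normalization. Its rank went from 458, 730 and 675 to 5125, 4591 and 4501.

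On 1448826_at the same arrays read 14.84, 14.16 and 14.19 in Des-/- and 14.84, 14.75 and 14.79 in TNFαDes-/-. The groups overlapped, because Des-/- replicate 1 was as bright as the TNFαDes-/- arrays. The change of 0.40 ± 0.18 did not pass the test (adjusted p = 0.182), and after quantile normalization it was -0.089 (adjusted p = 0.505). This probe set lay within 0.041 to 0.29 of the top of every array and ranked 5, 2 and 2 in Des-/- and 6 on each TNFαDes-/- array.

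**Figure D1:**
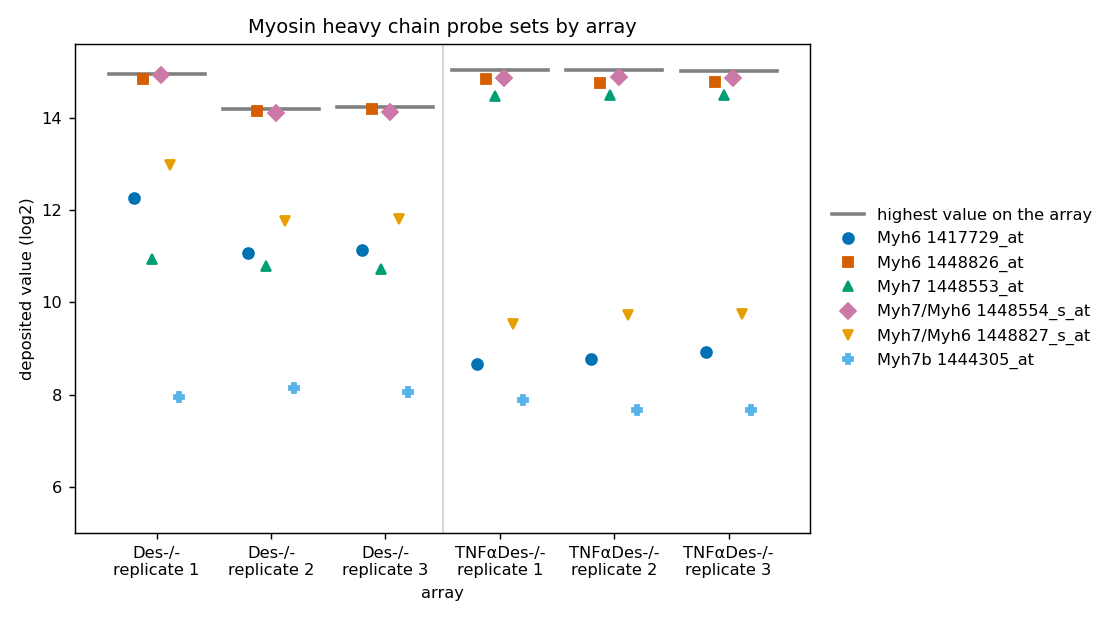
Deposited log2 value of each heavy chain probe set on each of the 6 arrays (points), with the highest value on the array as a grey line. Myh7 1448553_at rises from between 10.72 and 10.95 to between 14.47 and 14.50, Myh6 1417729_at falls to between 8.67 and 8.92, and Myh6 1448826_at stays within 0.29 of the grey line on every array.

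The disagreement of the 2 Myh6 probe sets was itself tested, as the difference 1417729_at minus 1448826_at on each array. It was -2.58, -3.08 and -3.06 in Des-/- and -6.17, -5.98 and -5.87 in TNFαDes-/-. The groups were far apart, with a change of -3.10 ± 0.18 (SE; 95% interval -3.50 to -2.71) and a limma adjusted p of 3.89e-05 over 22981 pairs of probe sets of the same gene. It was the 7th largest change among these pairs, of which 13.9% passed the test. Since it is taken within each array, a shift equal for all probe sets of an array cancels in it. A difference of scale at the bright end alone, as described above, need not cancel. After quantile normalization the change of this difference was -2.88.

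The probe sets shared by Myh7 and Myh6 divided the same way. No value of theirs can be assigned to either gene. The dimmer, 1448827_s_at, read 12.97, 11.78 and 11.80 in Des-/- and 9.53, 9.73 and 9.75 in TNFαDes-/-. It fell by 2.51 on the log2 scale (SE 0.29), 5.71-fold lower, with a limma adjusted p of 0.00135, although Myh7, 1 of its 2 annotated genes, rose. After quantile normalization its change was -2.81. The brighter, 1448554_s_at, read 14.93, 14.11 and 14.13 against 14.87, 14.88 and 14.87. Its change of 0.48 ± 0.20 did not pass (adjusted p = 0.160) and was -0.011 after quantile normalization. It lay within 0.026 to 0.16 of the top of every array. Thus of the 4 probe sets annotated to Myh6, alone or with Myh7, the 2 near the top of the arrays did not pass the test and the 2 further down fell. The position of the probes along the transcripts was not analysed here, and the part that signal near the top plays in this disagreement was not tested.

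Myh7b encodes a slow heavy chain related to Myh7, known more for its microRNA than for its protein in the heart. Its probe set 1444305_at read 7.95, 8.16 and 8.07 in Des-/- and 7.89, 7.68 and 7.68 in TNFαDes-/-. The groups did not overlap, though narrowly. The change of -0.31 ± 0.11 did not pass the test as deposited (adjusted p = 0.0921) and passed after quantile normalization (-0.46, adjusted p = 0.0458). The genes of the most similar profile were C1galt1, Alk, Llgl1, Avil and Tet3, at distances of 0.084 to 0.111.

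Among the light chains none passed the test on the deposited scale. Myl2, the ventricular regulatory light chain, read 14.95, 14.20 and 14.23 in Des-/- and 14.92, 14.89 and 14.88 in TNFαDes-/-. It was the brightest probe set of all on the 3 Des-/- arrays and ranked 2, 3 and 3 on the TNFαDes-/- arrays, so it sets the top of the scale in the first group. Its change was 0.44 ± 0.19 (limma adjusted p = 0.174). Because Myl2 is itself the top in Des-/-, this change could not exceed the 0.57 difference between the groups' array tops. After quantile normalization the change was -0.098 (95% interval -0.28 to 0.082). Quantile values follow the rank on the array. Myl2 held rank 1 on every Des-/- array, so its change on that scale could not be above 0. Myh6 1448826_at and the shared 1448554_s_at had little room to rise on it. Their quantile values in Des-/- were 14.61 to 14.66, and that of rank 1 was 14.74.

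Myl3, the ventricular essential light chain, had 3 probe sets. The first, 1427768_s_at, read 14.82, 14.09 and 14.04 in Des-/- and 14.60, 14.59 and 14.64 in TNFαDes-/-. The second, 1428266_at, read 14.62, 13.99 and 13.99 against 14.38, 14.40 and 14.35. The third, 1427769_x_at, read 13.50, 13.11 and 13.14 against 13.25, 13.35 and 13.39. On all 3 the Des-/- array with the highest value was replicate 1, and the groups overlapped. Their changes were 0.29 ± 0.19, 0.18 ± 0.17 and 0.075 ± 0.12 (adjusted p = 0.368, 0.550 and 0.749). After quantile normalization they were -0.15, -0.26 and -0.25, none past the test. The differences between these probe sets changed by 0.22, 0.12 and -0.10 (adjusted p = 0.383, 0.602 and 0.688), so no pair passed the test of disagreement.

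Myl4, the atrial essential light chain, read 13.13, 12.44 and 12.37 in Des-/- and 12.69, 12.71 and 12.74 in TNFαDes-/- on 1422580_at. The groups overlapped, and the change was 0.066 ± 0.19 (adjusted p = 0.863). It was -0.30 after quantile normalization (adjusted p = 0.0520), and its rank went from 183, 230 and 231 to 312, 300 and 297. The dimmer probe set 1457126_at read 6.23, 6.41 and 6.85 against 6.05, 6.26 and 5.99, a change of -0.40 ± 0.16 (adjusted p = 0.152) and of -0.44 after quantile normalization (adjusted p = 0.151). The 2 probe sets differed in change by 0.46 ± 0.29, which did not pass (adjusted p = 0.328). The profiles most like that of 1422580_at belonged to Ndufv2, Atp5o, Sod2, Coq9 and Mylk3, at distances of 0.065 to 0.100. The first 4 encode mitochondrial proteins and Mylk3 the cardiac myosin light chain kinase.

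Myl7, the atrial regulatory light chain, read 13.66, 13.14 and 13.00 in Des-/- and 12.78, 12.86 and 12.86 in TNFαDes-/-. Every TNFαDes-/- array was below every Des-/- array. The change of -0.44 ± 0.16 did not pass the test as deposited (adjusted p = 0.118). After quantile normalization it was -0.78 ± 0.09, 1.72-fold lower, and passed (adjusted p = 0.000802). Its rank went from 75, 68 and 91 to 280, 257 and 260, which does not depend on the scale of an array. Against Des-/- replicate 1 alone, the Des-/- array whose top is near those of TNFαDes-/-, the change was -0.83. This lone array has no spread of its own, and its 13.66 is the highest Des-/- value of Myl7. The most similar profiles were those of Cnot6l, Pbxip1, Nr3c1, Pgm2 and Cpt2, at distances of 0.072 to 0.142.

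**Figure D2:**
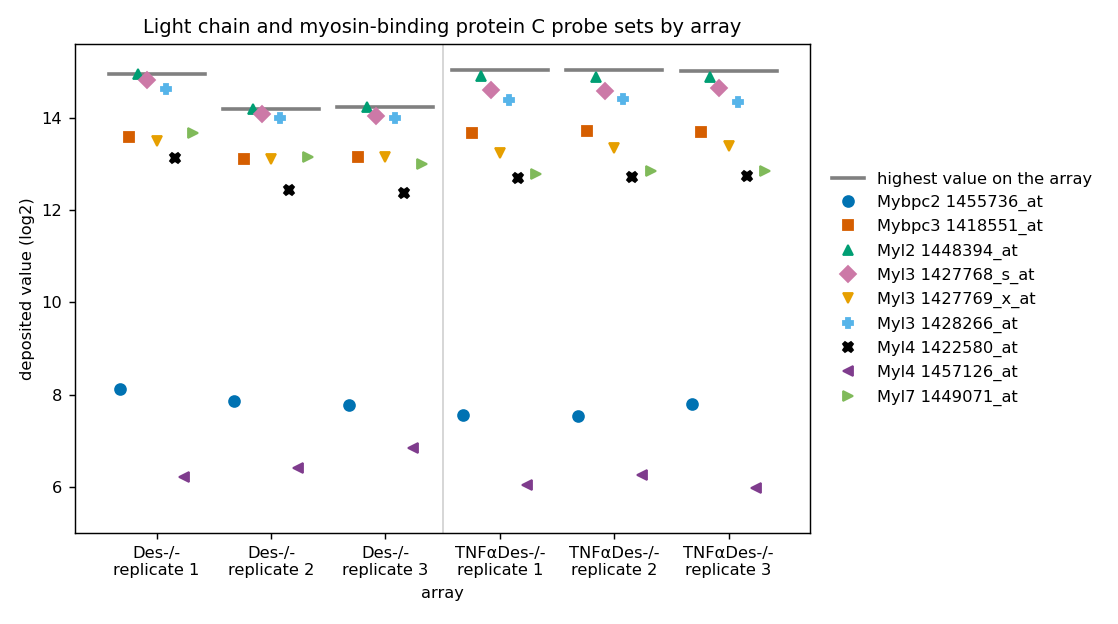
Deposited log2 value of each light chain and myosin-binding protein C probe set on each of the 6 arrays (points), with the highest value on the array as a grey line. Myl2 lies on the grey line of the 3 Des-/- arrays, Des-/- replicates 2 and 3 read lower than replicate 1 for the bright chains, and Myl7 reads 12.78 to 12.86 on the TNFαDes-/- arrays, below its 13.00 to 13.66 on the Des-/- arrays.

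Mybpc3, the cardiac myosin-binding protein C, read 13.59, 13.11 and 13.16 in Des-/- and 13.67, 13.71 and 13.69 in TNFαDes-/-. The groups did not overlap, though narrowly. The change of 0.41 ± 0.14 (adjusted p = 0.0853) was 0.070 after quantile normalization (95% interval -0.12 to 0.26), and the ranks of 84, 76 and 61 and of 66, 60 and 63 overlapped. Mybpc2, the fast skeletal form, read 8.12, 7.87 and 7.79 against 7.56, 7.55 and 7.80. The groups overlapped through TNFαDes-/- replicate 3. The change of -0.29 ± 0.12 did not pass as deposited (adjusted p = 0.166) and passed after quantile normalization (-0.42, adjusted p = 0.0149).

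**Figure D3:**
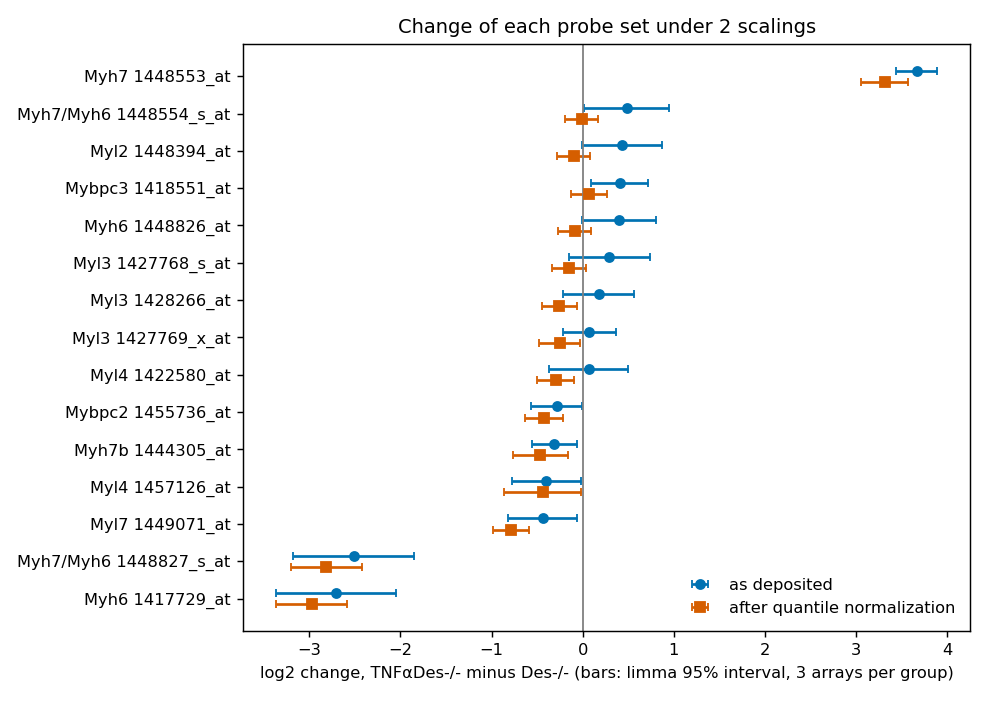
Log2 change of each of the 15 probe sets, TNFαDes-/- minus Des-/-, with its 95% interval from limma (3 arrays per group), as deposited (circles) and after quantile normalization (squares). Myh7 at 3.67 and Myh6 1417729_at at -2.71 stand far from 0 under both scalings, while the bright chains move from above 0 to about 0 or below it.

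Near the top of an array, within 1 log2 unit of its highest value, lay 5 of the 13 single-gene probe sets and 6 of all 15. They were Myh6 1448826_at, Myh7, Myl2, Myl3 1427768_s_at and 1428266_at, and the shared 1448554_s_at. Myh7 is among them through the TNFαDes-/- arrays alone, where it is high, and the other 5 lay within that distance on every array. These 5 had changes of 0.18 to 0.48 on the deposited scale, with a median of 0.40, and of -0.26 to -0.011 after quantile normalization, with a median of -0.098. The number of probe sets within that distance of the top was 42, 59 and 54 on the Des-/- arrays and 40, 35 and 39 on the TNFαDes-/- arrays. The brightest probe set was Myl2 on each Des-/- array and Nppa, the atrial natriuretic peptide gene, on each TNFαDes-/- array. All 13 single-gene probe sets were above the median of every array.

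**Figure D4:**
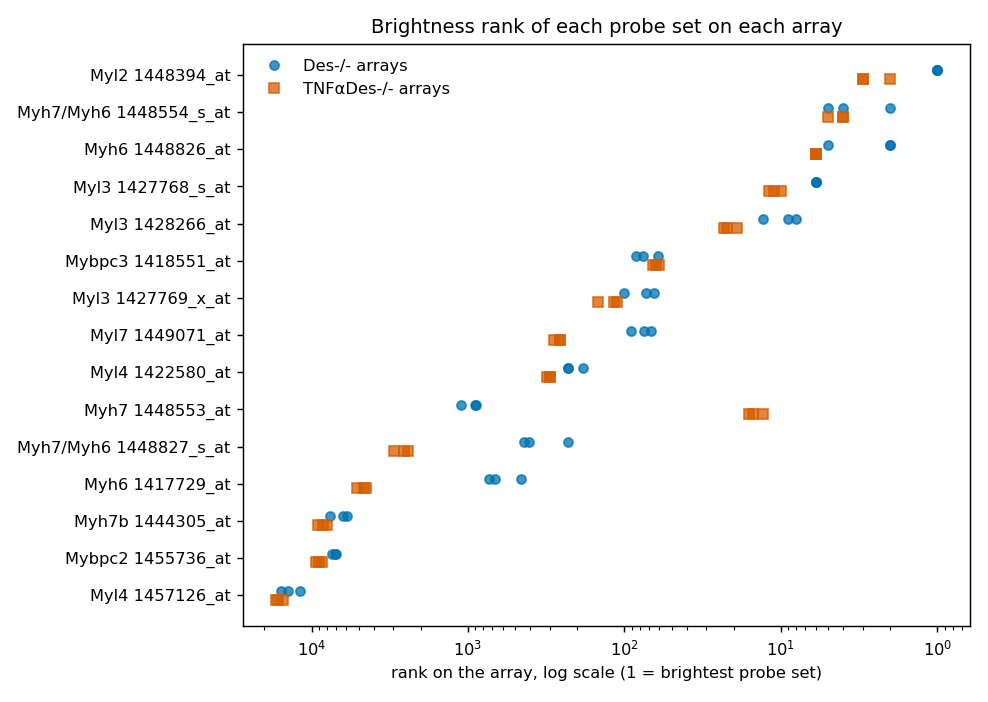
Rank in brightness of each of the 15 probe sets among 45037 on each array (log axis, rank 1 the brightest), circles for Des-/- and squares for TNFαDes-/-. Myh7 moves from ranks 889 to 1112 up to 13 to 16, Myh6 1417729_at from 458 to 730 down to 4501 to 5125, and Myl7 from 68 to 91 down to 257 to 280.

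Genes around these chains were read from lists, each gene on its brightest probe set. Over all 18193 genes read this way, 18.8% passed the test, 13.6% higher and 5.14% lower, with a median change of 0.041. After quantile normalization 10.7% were higher and 9.1% lower. Of 11 other sarcomeric myosin and myosin-binding genes measured, most of them skeletal, 0 rose and 1 fell by the limma test (0 and 1 also at an unadjusted p under 0.05), with a median change of -0.12. After quantile normalization 0 were higher and 2 lower, with a median of -0.10. The gene that fell was Myl1, an essential light chain of fast skeletal muscle (-1.01 ± 0.19, limma adjusted p = 0.0103, and -1.31 after quantile normalization). Without TNFαDes-/- replicate 1 its adjusted p was 0.0514. Only Myl1 and Mybphl of this list were above the median of every array, so the skeletal heavy chains are not shown to be above background.

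Of the 9 smooth muscle and nonmuscle myosins, 1 rose and 1 fell, with a median of 0.20. After quantile normalization 1 was higher and 2 lower, and the median turned to -0.036. Myl9, a regulatory light chain of smooth muscle, rose by 1.53 ± 0.20 (limma adjusted p = 0.00216, and 1.18 after quantile normalization). Myh11, the smooth muscle heavy chain, fell by 0.85 on the log2 scale on its brighter probe set (adjusted p = 0.0190, and -1.01 after quantile normalization) and read -0.0082 on the other. That call was lost without TNFαDes-/- replicate 1, 2 or 3 (adjusted p = 0.0578, 0.0531 and 0.0830). Of 6 smooth muscle markers, Acta2 rose by 1.89 ± 0.14 (1.53 after quantile normalization) and Myh11 fell, with a median of 0.14 that was -0.020 after quantile normalization. The summed level of the list (log2 of the sum of linear values) was 11.98 to 12.55 in Des-/- and 13.42 to 13.50 in TNFαDes-/-. Without Acta2 the groups overlapped, at 10.88 to 11.50 and 10.99 to 11.03.

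Among 11 measured genes of a list of kinases and phosphatase subunits linked to myosin, 1 rose and 1 fell, with a median of 0.069. After quantile normalization 1 was higher and 2 lower, and the median turned to -0.20. Mylk4, a myosin light chain kinase of striated muscle, read 10.68, 10.15 and 10.07 in Des-/- and 9.14, 8.92 and 9.12 in TNFαDes-/-. The groups were about 1 log2 unit apart, with a change of -1.24 ± 0.17 (limma adjusted p = 0.00243, and -1.48 after quantile normalization). Ppp1r12c, a targeting subunit of myosin phosphatase, rose by 0.58 ± 0.10 (adjusted p = 0.00768, and 0.43 after quantile normalization) on the brighter of its 2 probe sets and read 0.0026 on the other. Mylk3, the cardiac kinase of Myl2, had a change of 0.069 ± 0.19 (adjusted p = 0.857), and of -0.28 after quantile normalization (adjusted p = 0.0777).

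Of 5 chaperone genes for myosin folding and thick filament assembly, 2 rose and 1 fell, with a median of 0.58. After quantile normalization the counts were again 2 and 1, and the median was 0.27. Smyd2, a methyltransferase that binds titin and Hsp90, rose by 1.02 ± 0.12 (limma adjusted p = 0.00124, and 0.70 after quantile normalization). Unc45b, the muscle myosin chaperone, rose by 0.58 ± 0.11 (adjusted p = 0.0129, and 0.32 after quantile normalization), a call that was lost in 4 of 6 fits with 1 array left out (adjusted p up to 0.0620). Smyd1, which is needed for sarcomere assembly, fell by 0.85 on the log2 scale (SE 0.16; adjusted p = 0.0111), and by 1.15 after quantile normalization. Its 6 probe sets ranged from -1.21 to 0.097, 3 of them past the test and lower, and the call on the brightest was lost without TNFαDes-/- replicate 1 or 3 (adjusted p = 0.0583 and 0.0523).

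Of 10 thick filament and M-band genes, 3 rose and 0 fell by the limma test (4 and 0 at an unadjusted p under 0.05), with a median of 0.24. After quantile normalization 2 were higher and 2 lower, with a median of -0.028. Trim54 and Trim63, ubiquitin ligases of the sarcomere, rose by 0.85 ± 0.12 (adjusted p = 0.00346) and 0.74 ± 0.19 (adjusted p = 0.0330). After quantile normalization their changes were 0.49 and 0.39. The Trim63 call was lost in 5 of 6 fits with 1 array left out (adjusted p up to 0.125). Myom2, the M-band protein myomesin 2, rose by 0.47 (adjusted p = 0.0196) on its brightest probe set. That call was lost in 4 of the 6 fits (adjusted p up to 0.0836) and after quantile normalization (0.12, adjusted p = 0.523). Its 4 probe sets ranged from -0.36 to 0.52, 2 of them past the test and higher.

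Of 26 genes known to control cardiac myosin transcription, 4 rose and 3 fell, with a median of 0.085. After quantile normalization 4 were higher and 4 lower, and the median turned to -0.12. Srf, the serum response factor, rose by 0.98 ± 0.10 (limma adjusted p = 0.000706), and Rcan1, a target and inhibitor of calcineurin, by 0.83 ± 0.09 (adjusted p = 0.000974). Nkx2-5, a cardiac homeobox factor, rose by 0.69 ± 0.10 (adjusted p = 0.00403), and Mef2c, a muscle transcription factor, fell by 0.65 (SE 0.12; adjusted p = 0.00972), with its 5 probe sets between -0.94 and -0.36. The changes of Srf, Rcan1, Nkx2-5 and Mef2c after quantile normalization were 0.80, 0.62, 0.42 and -0.84. Thra, the main thyroid hormone receptor of the heart, had a change of 0.33 ± 0.11 on its brightest probe set that did not pass (adjusted p = 0.0752; 0.12 after quantile normalization). Of its 3 probe sets, with changes of 0.015 to 0.50, 1 passed and was higher. Thrb was not above the median of every array. Dio2 was among the 4 that rose, by 0.51 ± 0.11 (limma adjusted p = 0.0182, and 0.52 after quantile normalization). That call was lost in 4 of 6 fits with 1 array left out (adjusted p up to 0.0784). Without Des-/- replicate 1, calls rose over the whole array, to 21.7% of all genes higher and 7.29% lower. In that fit 6 kinase and phosphatase genes were higher and 2 lower, and 10 regulators were higher and 3 lower, of the smooth muscle and nonmuscle myosins 3 and 1, of the chaperones 3 and 1, and of the thick filament genes 5 and 0.

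**Figure D5:**
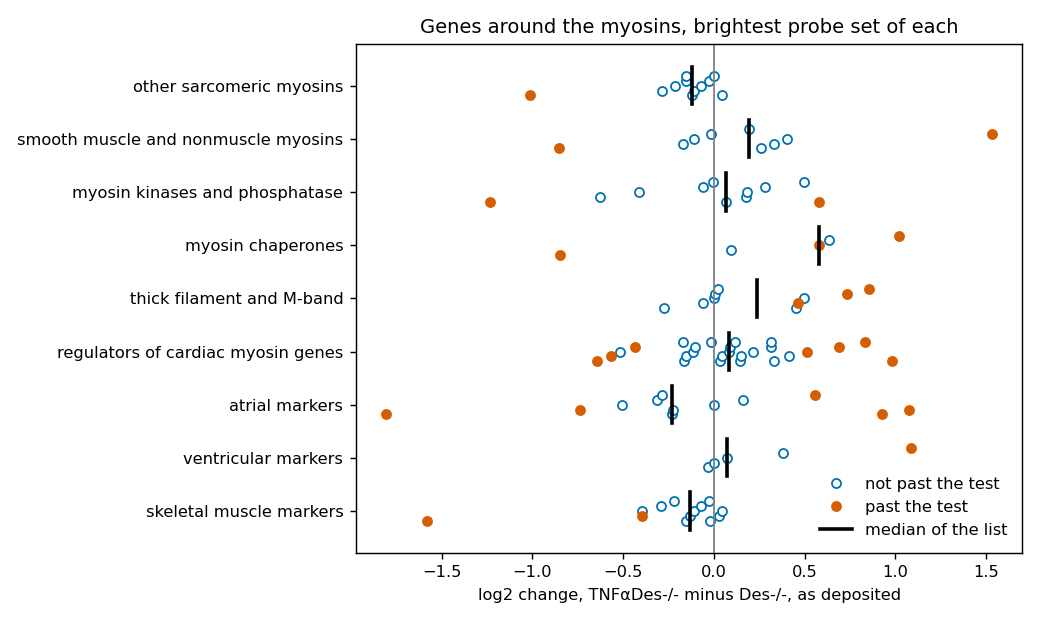
Log2 change, TNFαDes-/- minus Des-/-, of each measured gene of 9 lists on its brightest probe set as deposited, filled where limma's adjusted p was below 0.05, with the median of the list as a black bar. The medians lie between -0.23 for the atrial markers and 0.58 for the 5 chaperone genes, and most genes of each list except the chaperones did not pass the test.

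The hearts hold atria and ventricles, and the light chains differ between them, so markers of both were read beside the chains. In such whole-tissue RNA, fewer cells of a type and less RNA per cell cannot be told apart. Of 12 atrial markers, 3 rose and 2 fell, with a median of -0.23. After quantile normalization 2 were higher and 5 lower, with a median of -0.20. Kcnj3 and Kcnj5, which encode the atrial acetylcholine-gated potassium channel, fell by 1.81 (SE 0.13; adjusted p = 0.000171) and 0.74 (adjusted p = 0.0198) on the log2 scale, and 3 of the 4 Kcnj3 probe sets passed the test. The Kcnj5 call was lost without Des-/- replicate 2 (adjusted p = 0.0534) or TNFαDes-/- replicate 3 (adjusted p = 0.0544). Dkk3 rose by 1.08 ± 0.16 (adjusted p = 0.00434) and Nppa by 0.93 ± 0.16 (adjusted p = 0.00755), and after quantile normalization their changes were 0.84 and 0.43. Nppa is also raised in stressed ventricles. The changes of Kcnj3 and Kcnj5 after quantile normalization were -1.90 and -0.88. Sln, the atrial sarcolipin gene, read 12.50, 12.12 and 12.06 in Des-/- and 11.84, 11.97 and 11.95 in TNFαDes-/-. As with Myl7, its groups did not overlap, its deposited change of -0.31 did not pass (adjusted p = 0.158) and its change after quantile normalization did (-0.67, adjusted p = 0.00241). Mybphl, another atrial gene, likewise read -0.28 (adjusted p = 0.271) and -0.52 (adjusted p = 0.00933). Nr2f2, also of this list, read -0.51 (adjusted p = 0.0963) and -0.63 (adjusted p = 0.0224), with its 6 deposited probe set changes between -0.84 and -0.23. Nr2f1 and Gja5 each read -0.23 as deposited, passed on neither scale and were not above the median of every array. Some other genes of the list did not share this fall. Pam rose by 0.56 (limma adjusted p = 0.0331), and its 0.19 after quantile normalization did not pass (adjusted p = 0.397). The Pam call was lost in 4 of 6 fits with 1 array left out (adjusted p up to 0.130). Kcna5 (-0.0006) and Bmp10 (0.16) did not pass on either scale. The summed level of the 12 was 14.64 to 15.15 in Des-/- and 15.44 to 15.50 in TNFαDes-/-, and without Nppa, the brightest probe set of the latter arrays, the groups overlapped at 13.28 to 13.71 and 13.49 to 13.63. Of 5 ventricular markers, 1 rose (Irx5, 1.09 ± 0.12, adjusted p = 0.00102, and 0.995 after quantile normalization) and 0 fell by limma (1 and 0 at an unadjusted p under 0.05). How much atrium each RNA sample held is not stated, and its part in the Myl4 and Myl7 values was not tested.

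The 12 heart muscle markers, among them Actc1 and Tnnt2, were above the median of every array. Of these 1 rose (Nkx2-5) and 0 fell by limma (5 and 0 at an unadjusted p under 0.05), with a median change of 0.29 that became -0.12 after quantile normalization, the same turn as in the bright chains. Without Des-/- replicate 1, 8 of the 12 were called higher and the median was 0.49, in the fit where 21.7% of all genes were called higher. Of 13 skeletal muscle markers, 10 were not above the median of every array, and 0 rose and 2 fell by limma (0 and 3 at an unadjusted p under 0.05). Tnnt3 read -0.40 (adjusted p = 0.0483, and -0.37 after quantile normalization), a call lost in 5 of 6 fits with 1 array left out (adjusted p up to 0.173). Casq1, a calcium store protein, fell by 1.58 (SE 0.11; adjusted p = 0.000171), and its change after quantile normalization was -1.69. The summed level of that list was 9.39 to 9.44 in Des-/- and 8.73 to 8.88 in TNFαDes-/-. Without Casq1 the groups overlapped, at 8.49 to 8.68 and 8.33 to 8.59.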

How the data were processed

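Groups and replicate numbers came from the sample titles. The table holds log2 values as the authors deposited them. The submitters' processing notes name RMA, without a version, and do not say which arrays, if any, its quantile step took together. The table held 45101 probe sets, of which 64 controls were left out. In the platform annotation, 34945 of the others had 1 gene symbol, 932 several and 9160 none. All 9 member symbols were found in the RefSeq table (GRCm38.p6), which gave positions and sequences.

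Each probe set was tested in R 4.3.3 by limma 3.58.1 (lmFit, then eBayes, all 6 arrays, no covariate), with Benjamini-Hochberg adjustment over all probe sets and a threshold of 0.05. Pairs of probe sets of 1 gene were compared by their difference within each array, in the same way. Intervals are limma's 95% intervals. Precision is limited by having 3 arrays per group. No filter on dim probe sets was used. The scripts were tested on simulated data. Figures were drawn with matplotlib 3.10.9.

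Named were every probe set of the members, up to 4 genes past the test per list by size of change, list genes that bear on a result, and the 5 genes nearest in profile to Myh7, Myh7b, Myl4 and Myl7. Skeletal list genes near background are given by count. The members and lists were chosen with earlier results of these data known. Alternatives covered the variance model, array weights, a replicate block, scaling, filters, the unit of the test, a 1.2-fold threshold, a Welch test and arrays left out.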

Additional observations from a re-analysis of the deposited data

How the results depend on the processing

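The rise of Myh7, the fall of Myh6 1417729_at and the Myh6 disagreement passed the test in every alternative run on them except a Welch test, in which 0 of 13 member probe sets, 0 higher and 0 lower, and 0 of 5 member pairs passed after adjustment (3, 1, 2 and 1 at an unadjusted p under 0.05), with 214 of all probe sets and 0 of all pairs past it (4514 pairs unadjusted). Myh7 ranged from 3.18 to 3.73 and Myh6 1417729_at from -3.48 to -2.32. The other members depended on scaling and on Des-/- replicate 1. Member calls numbered 5 (4 lower) after quantile normalization (7320 of all probe sets, 3487 lower), 7 (6 lower) after cyclic loess (7247 of all, 3534 lower), 6 (5 lower) after quantile normalization without Des-/- replicate 1 (8717 of all, 4302 lower), and 9 (6 higher, 3 lower) with array weights, which called 15035 of all probe sets, 7036 pairs and 2 member pairs. With 1 array left out, 2 to 10 member probe sets (1 to 7 higher, 1 to 3 lower), 3017 to 10402 of all probe sets, 1058 to 4409 of all pairs and 1 to 2 member pairs passed. Without both Des-/- replicates 2 and 3 the counts were 3252 probe sets, 2 members lower and 1147 pairs. On the brightest probe set of each gene, 3869 genes and 1 member passed, with 0 members lower (3 at an unadjusted p under 0.05), and on the mean of all probe sets 3603 genes. A 1.2-fold threshold left 1948 probe sets and 779 pairs, and a filter on dim probe sets 1977 pairs. Leaving out probe sets with names in _s_at, _x_at or _a_at left 1746 pairs.

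Directions turned as follows, and the cause was not tested. For Myl2, at rank 1 on every Des-/- array, quantile normalization could not give a change above 0. For Myh6 1448826_at and the shared 1448554_s_at it left little room above 0. After quantile normalization Myh6 1448826_at was -0.089, the shared 1448554_s_at -0.011, Myl2 -0.098, Myl3 -0.15, -0.25 and -0.26 (1427768_s_at, 1427769_x_at, 1428266_at), Myl4 1422580_at -0.30, and the pair of the last 2 Myl3 probe sets 0.0043. After cyclic loess they were, in that order, -0.10, -0.015, -0.064, -0.20, -0.37, -0.31 and -0.35, and Mybpc3 was -0.043. Quantile normalization without Des-/- replicate 1 gave -0.10 for Myh6 1448826_at and for Myl2, -0.15, -0.31 and -0.29 for Myl3, and -0.24 for Myl4. Against Des-/- replicate 1 alone, the same 7 were -0.049, -0.054, -0.057, -0.21, -0.17, -0.24 and -0.42, with pairs at -0.034 and 0.070 for Myl3 and -0.29 for Myl4. The mean of all probe sets was -1.16 for Myh6 and -0.17 for Myl4. With 1 array left out, Myl4 1422580_at ranged from -0.072 to 0.31, below 0 without Des-/- replicate 2 (-0.040) or 3.

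With the replicate number as a block (replicate block), 7013 probe sets, 2 member probe sets, 3753 pairs and 1 member pair passed. Same-numbered arrays correlated at 0.22, 0.28 and -0.28 in their deviations from the group means, and not every array correlated best with its own number. With 3 arrays per group these correlations cannot settle whether the numbers pair the arrays.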
